A study of Mus musculus with 6 samples.

Results

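The genes described here encode the enzymes and transporters that carry glucose to pyruvate and lactate, and the mitochondrial enzymes that oxidise pyruvate in the citric acid cycle. They were chosen by name from the known pathways, at a time when earlier results of these data were known, and all 39 were found among the 23441 genes of the deposited table. Of these, 20 are glucose and lactate transporters or glycolytic and lactate enzymes, and 19 belong to pyruvate dehydrogenase, the citric acid cycle or pyruvate carboxylation. Polyadenylated RNA had been sequenced from mouse retinae dissected at embryonic day 14.5. The 3 control libraries came from mice with 2 floxed alleles of Ronin (gene symbol Thap11), genotype Ronin flox/flox, without Cre. The 3 conditional knockout (CKO) libraries came from mice of genotype Chx10-Cre::GFP +/tg; Ronin flox/flox, which carry the same floxed alleles and a transgene for Cre fused to GFP driven by Chx10 sequences, a promoter of retinal progenitors. All mice had a mixed background of SJL/B6, C57/B6, 129/Sv and FVB. Since the controls lacked the transgene, loss of Ronin and presence of Cre cannot be told apart. The labels do not say whether replicates came from separate animals. The p-values thus set the group difference only against the spread within the groups of these 6 libraries. Part of that spread may be technical, and it may not hold the spread between animals.

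Glycolysis splits glucose in the cytosol into pyruvate with a small yield of ATP, and the pyruvate is either converted to lactate for export or enters the mitochondrion. There the pyruvate dehydrogenase complex turns it into acetyl-CoA, which citrate synthase feeds into the citric acid cycle, whose NADH drives the respiratory chain. Retina is known for making lactate even when oxygen is present, and Ronin, a THAP-domain transcription factor that works with HCF-1, is known for binding promoters of genes of growth and mitochondrial function.

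The targeted gene followed the labels. Thap11 stood at 68.3, 82.0 and 71.6 CPM (counts per 1000000 reads, TMM-scaled) in control replicates 1 to 3 and at 11.2, 10.9 and 6.38 CPM in CKO replicates 1 to 3, a log2 fold change of -2.96 ± 0.24 (SE, edgeR adjusted p = 0.00425). The libraries held between 23721052 and 28504391 counted reads. All 12 retinal progenitor markers had reads in every library, with a summed level between 8739 and 9672 CPM. Control replicate 2 stood apart from the other libraries, so its weight is given beside the results it touches and, for every tested member, in the plot of fold changes. Summed lens markers lay between 14.2 and 23.1 CPM in control libraries and between 81.9 and 11223 CPM in the CKO, with Crybb2 at 0 in all controls and 17 of 17 tested markers at a positive log2 fold change. Summed blood vessel markers lay between 299 and 359 CPM in control libraries and between 255 and 278.5 CPM in the CKO, with 1 of 11 at a positive log2 fold change. Summed retinal pigment epithelium markers lay between 25.3 and 44.4 CPM in the controls and between 19.6 and 27.0 CPM in the CKO, with 0 of 6 tested markers at a positive log2 fold change. The part of these cells in the results below was not tested.

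None of the enzyme and transporter genes passed the test. With the quasi-likelihood test of edgeR, 0.897% of the 14609 genes had an adjusted p under 0.05, 0.192% higher and 0.705% lower in the CKO, against 0 of the 38 testable members. DESeq2 and limma-voom also called 0 of the 38. At an edgeR unadjusted p under 0.05 there were 4 of the 38 members, Slc16a3, Aldoa, Pgk1 and Pdk1, all at negative log2 fold changes. Over all 14609 genes 962 lay under that threshold, 637 lower and 325 higher in the CKO. The lowest edgeR adjusted p of a member was that of Pdk1 at 0.522. The member that could not be tested was Eno1, whose counts lay at 2, 1 and 4 reads in the controls and 1, 0 and 2 reads in the CKO. Eno1, the main enolase gene of most tissues, has a near-identical processed copy, and Gapdh has many. Reads that match a copy equally well may have been lost in counting, so the values of both genes are uncertain. Whether Aldoa, Pgk1 or other members lost reads in this way was not tested. These were bulk libraries, so fewer cells of a type and less RNA per cell cannot be told apart.

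The glycolysis genes and the mitochondrial genes differed in the sign of most of their differences. Among the 19 tested glycolysis genes 17 (89.5%) had a negative log2 fold change, with a median of -0.23. Among the 19 mitochondrial genes 8 (42.1%) were negative, with a median of 0.018. Over all genes tested 55.0% were negative and the median was -0.029. Without control replicate 2 the glycolysis count was 8 of 19 and the median 0.0045, while the mitochondrial count was again 8 of 19 and the median 0.043. Scaling by library size only gave 15 of 19 and 3 of 19 negative, with a median over all genes of 0.045. The summed level of the glycolysis genes was 3307, 4688 and 3340 CPM in control replicates 1 to 3 and 2926, 2902 and 3313 CPM in CKO replicates 1 to 3. Only control replicate 2 stood well away from the rest. The summed mitochondrial level was 2195, 2063 and 1962 CPM in the controls and 2129, 2059 and 2138 CPM in the CKO, and the groups overlapped.

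**Figure D1:**
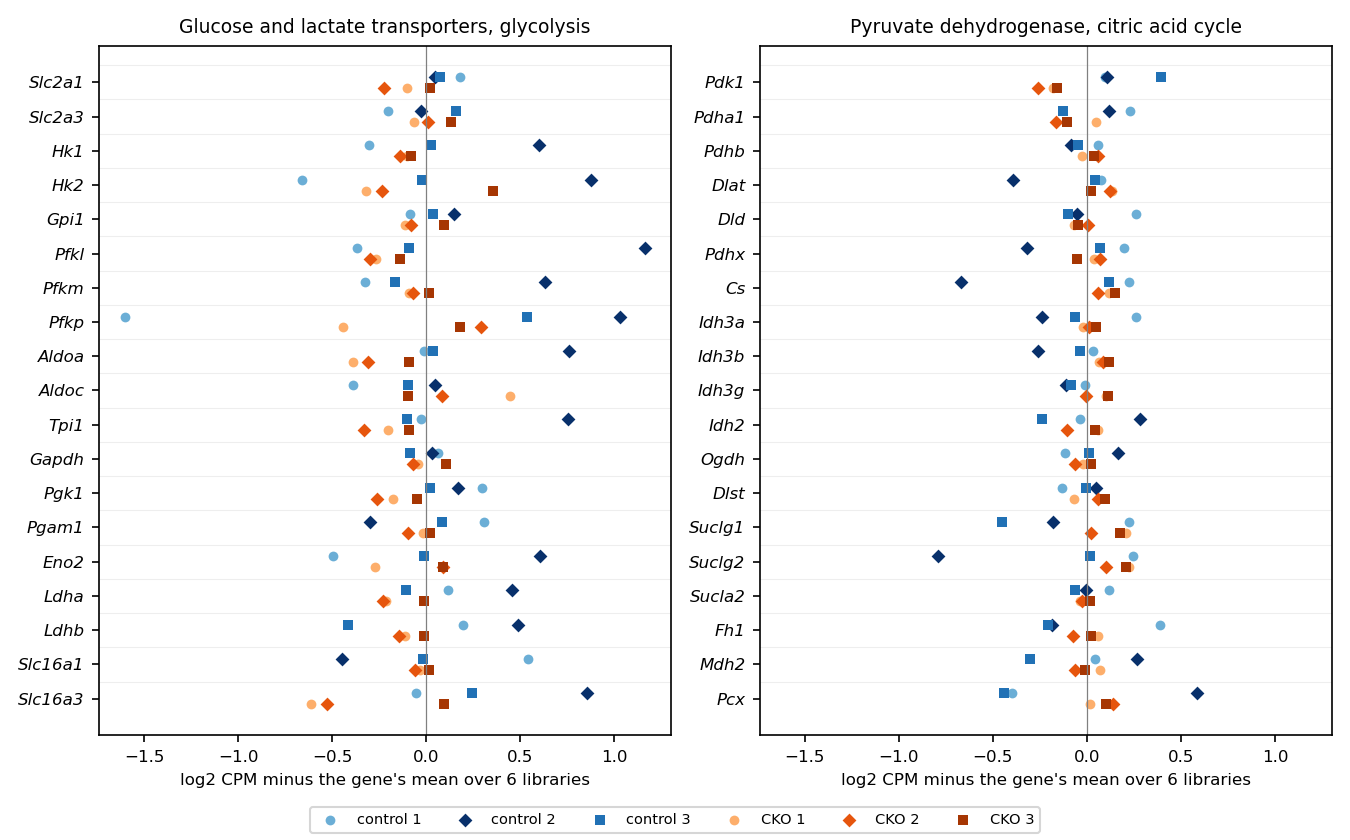
Level of each tested gene in each library, as log2 CPM minus the gene's mean over the 6 libraries (x axis), with controls in blue above and CKO libraries in orange below, and circle, diamond and square for replicates 1, 2 and 3. Control replicate 2 (dark blue diamond) was the highest of the 6 libraries for 12 of 19 glycolysis genes and the lowest for 8 of 19 mitochondrial genes.

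Values below are listed in the order of replicates 1 to 3. Glucose entry was led by Slc2a1 (GLUT1), the transporter of neural and vascular cells. Slc2a1 gave 847, 771 and 787 CPM in control libraries and 697, 640 and 757 CPM in CKO libraries. Its CKO libraries lay below every control, with a log2 fold change of -0.20 ± 0.13 (SE) and an edgeR adjusted p of 0.916. Per kilobase of exon its control level was 246 CPM per kb, against 4.48 CPM per kb for Slc2a3 (GLUT3), the high-affinity transporter of mature neurons. Slc2a3 ranged from 15.6 to 20.02 CPM over the 6 libraries with overlapping groups. Endothelial cells also carry Slc2a1, and the blood vessel markers above were lower in the CKO libraries. Their part in the Slc2a1 values was not tested.

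Glucose is trapped by hexokinase, and phosphofructokinase then makes the committed step. Hk1, the housekeeping hexokinase, gave 103, 194 and 130 CPM in control libraries and between 116 and 121 CPM in CKO libraries. Hk2, the form induced in rapidly growing cells, gave 36.9, 107 and 57.4 CPM in control libraries and 46.7, 49.5 and 74.5 CPM in CKO libraries. Both were highest in control replicate 2, and both groups overlapped. Gpi1, which interconverts glucose 6-phosphate and fructose 6-phosphate, varied little, between 193 and 231.5 CPM. Pfkl, the liver-type phosphofructokinase, gave 276, 801 and 335 CPM in control libraries and between 291 and 325 CPM in CKO libraries. Its control mean was 471 ± 288 CPM and its CKO mean 304 ± 18.2 CPM (SD, n = 3 per group), so that the log2 fold change of -0.63 ± 0.37 came from 1 library and was 0.0045 without it. Pfkp, the platelet type, gave 39.9, 247 and 176 CPM in control libraries and 89.1, 148 and 137 CPM in CKO libraries. It had the widest spread among controls of all tested members, an SD of 1.40 on the log2 scale against 0.40 in the CKO, with control replicate 1 low and control replicate 2 high. Pfkm, the muscle type, gave 88.4, 172 and 98.6 CPM in control libraries and between 104 and 112 CPM in CKO libraries.

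Aldolase, triose phosphate isomerase and phosphoglycerate kinase act where the sugar is split and the first ATP is regained. Aldoa gave 205, 352 and 213 CPM in control libraries and 159, 167 and 195 CPM in CKO libraries, with no overlap. Its log2 fold change was -0.56 ± 0.23 (SE, edgeR unadjusted p = 0.0387, adjusted p = 0.699), and it was -0.26 without control replicate 2. Tpi1 gave 261, 448 and 248 CPM in control libraries and 231, 212 and 249 CPM in CKO libraries. Its log2 fold change of -0.47 ± 0.24 (edgeR adjusted p = 0.873) became -0.13 without control replicate 2. The Pgk1 difference was nearly the same without that library. It gave 119, 109 and 98.2 CPM in control libraries and 85.5, 80.7 and 93.6 CPM in CKO libraries. All 3 CKO libraries lay below the controls, with a log2 fold change of -0.33 ± 0.13 (SE, edgeR unadjusted p = 0.0412, adjusted p = 0.713), and -0.31 without control replicate 2. Aldoc, the brain aldolase, was scarce, between 1.81 and 2.44 CPM in control libraries and between 2.21 and 3.22 CPM in the CKO.

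The remaining glycolytic steps showed overlapping groups. Gapdh ranged between 61.9 and 68.6 CPM in control libraries and between 62.7 and 70.8 CPM in CKO libraries, a log2 fold change of -0.0017 ± 0.13. Pgam1, a phosphoglycerate mutase, was one of 3 glycolysis genes, with Slc2a1 and Slc16a1, for which control replicate 2 was the lowest control, with 221, 145 and 189 CPM in control libraries and between 167 and 181 CPM in the CKO. Eno2, the neuronal enolase, gave 15.0, 32.1 and 20.9 CPM in control libraries and between 17.5 and 22.4 CPM in CKO libraries. The pyruvate kinase gene Pkm was not among the chosen genes and was looked at after its values were seen. It gave 1062, 2564 and 1128 CPM in control libraries and 992, 1010 and 1156 CPM in CKO libraries (edgeR adjusted p = 0.898), again high in control replicate 2 alone.

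Lactate is formed by lactate dehydrogenase and leaves through the monocarboxylate transporters. Ldha, the form that favours lactate production, gave 568, 719 and 487 CPM in control libraries and 452, 447 and 520 CPM in CKO libraries. Ldhb, the form that favours lactate use, gave 76.3, 93.6 and 49.9 CPM in control libraries and between 60.2 and 66.0 CPM in CKO libraries. Neither gene separated the genotypes. Slc16a3 (MCT4), an exporter of strongly glycolytic cells, gave 68.6, 129 and 84.4 CPM in control libraries and 46.5, 49.4 and 76.1 CPM in CKO libraries. CKO replicate 3 overlapped the controls. Its log2 fold change was -0.71 ± 0.28 (SE, edgeR unadjusted p = 0.0356, adjusted p = 0.681), and it was -0.40 without control replicate 2. Slc16a1 (MCT1), the general lactate transporter, gave 99.6, 50.2 and 67.6 CPM in control libraries and between 65.8 and 69.1 CPM in CKO libraries.

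**Figure D2:**
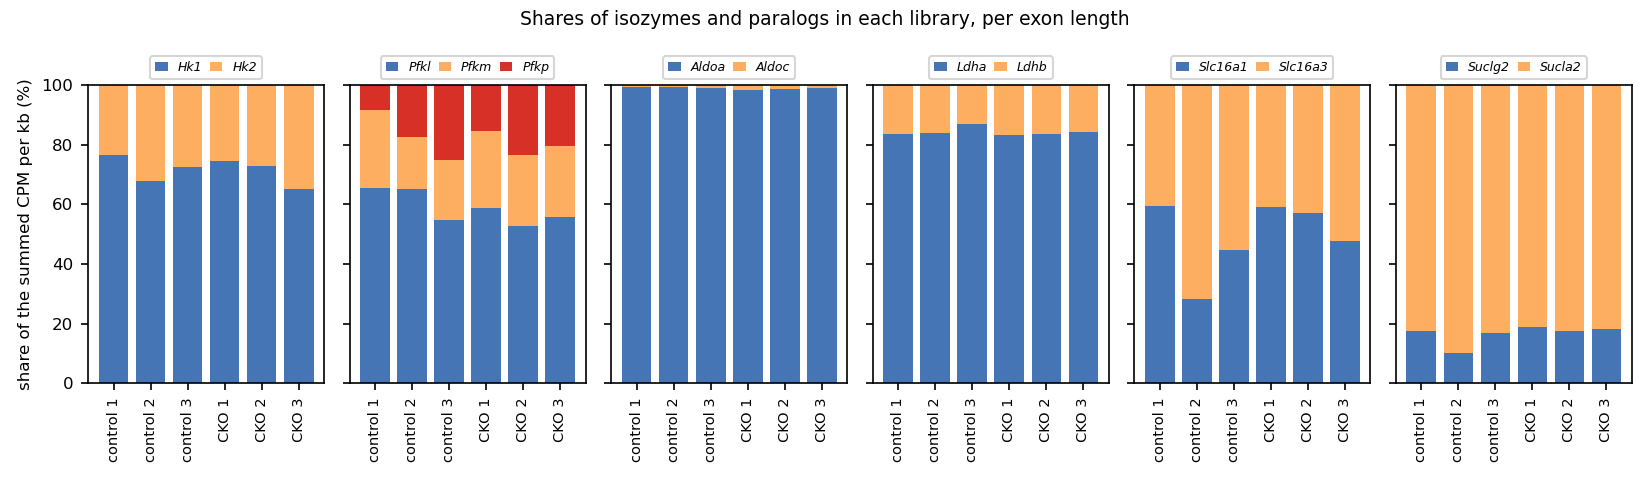
Share of each isozyme or paralog (bar segments, y axis, percent of the group's summed CPM per kilobase of exon) in each of the 6 libraries. Slc16a1 made up 28.2% of the 2 lactate transporters in control replicate 2 and between 44.6% and 59.3% in the other 5 libraries.

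Shares among isozymes were compared per kilobase of exon within each library, as a description. Hk1 made up between 65.2% and 76.4% of the hexokinase level, and the groups overlapped. Ldha made up between 83.5% and 87.0% of lactate dehydrogenase, and Aldoa between 98.3% and 99.4% of aldolase. The phosphofructokinase mixture varied among the controls, where Pfkp made up 8.22%, 17.5% and 25.0%, against 15.4%, 23.4% and 20.4% in the CKO. The lactate transporters varied more: Slc16a1 made up 59.3%, 28.2% and 44.6% of the pair in the controls and 59.1%, 57.2% and 47.7% in the CKO. Succinate-CoA ligase contains either the GTP-forming subunit Suclg2 or the ATP-forming subunit Sucla2. Suclg2 made up 10.03% of the pair in control replicate 2 and between 17.0% and 18.8% in the other libraries.

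The pyruvate dehydrogenase complex is switched off by its kinases, of which Pdk1 is a target of hypoxia-inducible factor. The other kinase genes were not among the chosen genes and were looked at after their values were seen. Pdk2 gave 45.3, 36.1 and 41.6 CPM in control libraries and 46.3, 48.2 and 47.4 CPM in CKO libraries. Every CKO library thus lay above every control (log2 fold change 0.21 ± 0.14 SE, edgeR adjusted p = 0.926). Pdk3 had overlapping groups (0.15 ± 0.18 SE, edgeR adjusted p = 0.945), and Pdk4 had too few reads to be tested. Pdk1 gave 84.9, 85.4 and 105 CPM in control libraries and 70.1, 66.3 and 71.2 CPM in CKO libraries. All CKO libraries lay below all controls, and control replicate 2 was not the extreme one. Its mean was 91.6 ± 11.2 CPM in control libraries and 69.2 ± 2.56 CPM in CKO libraries (SD, n = 3 per group), 1.32-fold lower, with a log2 fold change of -0.40 ± 0.14 (SE, edgeR unadjusted p = 0.0184, adjusted p = 0.522). Without control replicate 2 the log2 fold change was -0.44 and the adjusted p 0.208; over all alternatives the adjusted p lay between 0.208 and 1. The catalytic E1 subunits Pdha1 and Pdhb stood between 78.3 and 103 CPM and between 49.8 and 55.0 CPM over the 6 libraries, with overlapping groups. The E2 subunit Dlat gave 81.2, 58.7 and 79.4 CPM in control libraries and between 78.2 and 84.4 CPM in CKO libraries, and the E3-binding protein Pdhx at 42.8, 29.9 and 39.1 CPM in control libraries and between 35.9 and 39.1 CPM in the CKO. Both were lowest in control replicate 2. Dld, the E3 subunit that other dehydrogenase complexes also use, ranged from 134 to 172 CPM with overlapping groups.

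Citrate synthase, which opens the cycle, was low in the same library. Cs gave 226, 122 and 210 CPM in control libraries and 210, 202 and 214 CPM in CKO libraries, so that the value of 122 CPM in control replicate 2 set the positive log2 fold change of 0.17 ± 0.23, which was -0.052 without it. The NAD-dependent isocitrate dehydrogenase has 3 kinds of subunit. Idh3b gave 120, 97.8 and 114 CPM in control libraries and 123, 125 and 127 CPM in CKO libraries. Idh3g gave 112, 105 and 107 CPM in control libraries and 122, 113 and 122 CPM in CKO libraries. In both genes every CKO library lay above every control, narrowly for Idh3g, by a log2 fold change of 0.17 ± 0.13 for Idh3b (SE, edgeR adjusted p = 0.939) and of 0.14 ± 0.12 for Idh3g (SE, edgeR adjusted p = 0.940). The catalytic subunit gene Idh3a ranged between 64.0 and 90.8 CPM in control libraries and between 74.7 and 78.4 CPM in CKO libraries. Idh2, the NADP-dependent mitochondrial form, gave 179, 222 and 155 CPM in control libraries and between 170 and 191 CPM in CKO libraries.

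The 2-oxoglutarate dehydrogenase and succinate-CoA ligase steps follow. Ogdh ranged from 173 to 210 CPM and Dlst, its E2 subunit, from 136 to 159 CPM, both with overlapping groups. Suclg1, the shared subunit of succinate-CoA ligase, gave 100.5, 76.1 and 63.1 CPM in control libraries and 99.6, 87.5 and 97.4 CPM in the CKO. Its log2 fold change was 0.25 ± 0.18 (SE, edgeR adjusted p = 0.940), with control replicate 1 just above the CKO libraries and the other controls below them. Suclg2 gave 30.1, 14.7 and 25.7 CPM in control libraries and between 27.3 and 29.7 CPM in CKO libraries, and Sucla2 between 74.6 and 84.8 CPM over the 6 libraries. Fh1, the fumarase gene, gave 98.9, 66.2 and 65.4 CPM in control libraries and between 71.6 and 78.6 CPM in CKO libraries. Mdh2, mitochondrial malate dehydrogenase, gave 258, 302 and 203 CPM in control libraries and between 240 and 263 CPM in CKO libraries. Pcx, pyruvate carboxylase, which refills the cycle with oxaloacetate, gave 47.3, 93.7 and 45.9 CPM in control libraries and 63.0, 68.7 and 66.9 CPM in CKO libraries. The other controls lay below every CKO library for Pcx and control replicate 2 above them. Without that library its log2 fold change was 0.52 in place of 0.088, with an edgeR adjusted p of 0.066, against 0.820 to 1 in the remaining alternatives.

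Groups that do not overlap were counted over all members. In 4 of 38 (Slc2a1, Aldoa, Pgk1 and Pdk1) all CKO libraries lay below all controls, against 6.91% of all genes tested. In 2 of 38 (Idh3b and Idh3g) they lay above, against 5.74% of all genes. The controls spread more than the CKO libraries in 34 of 38 members (89.5%), as in 87.4% of all genes. The median SD on the log2 scale was 0.46 in the controls and 0.11 in the CKO for glycolysis genes, and 0.26 and 0.064 for mitochondrial genes.

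**Figure D3:**
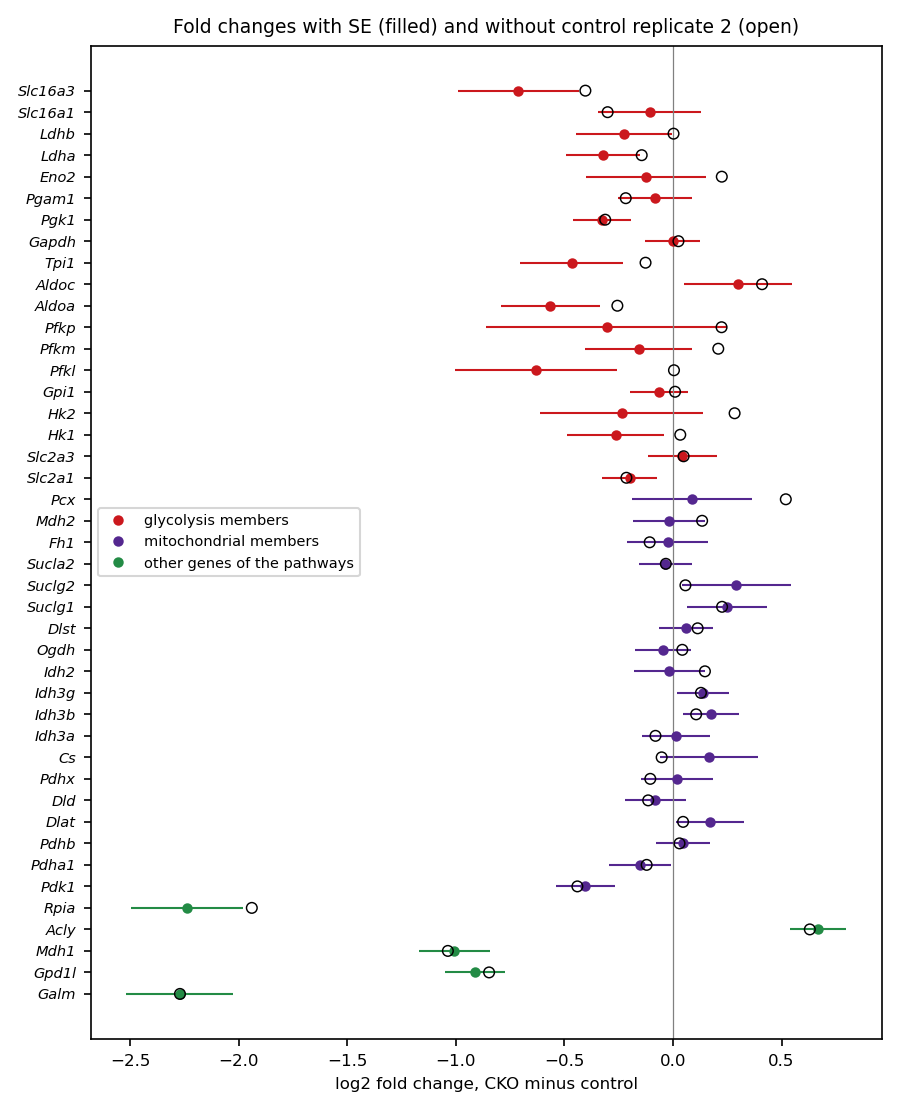
Log2 fold change (x axis, CKO minus control) of each tested member and of 5 other genes of the pathways (filled points, n = 3 per group). Bars show the SE, derived from the edgeR test statistic, and open circles the value without control replicate 2. The open circles of Pfkl, Hk1 and Ldhb lie at or near 0, while those of Pgk1, Pdk1 and Slc2a1 lie on their filled points.

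The departure of control replicate 2 moved with the base composition of the transcripts. Over 13822 tested genes with a known GC content, the log2 difference between control replicate 2 and the mean of the other controls had a Spearman rho of 0.59 and a Pearson r of 0.57 with GC content across genes. These points share the same 3 libraries, and genes are not independent replicates. From the fifth of genes lowest in GC to the highest, the median difference was -0.49, -0.19, 0.040, 0.27 and 0.55. Among the 38 members rho was 0.66 and r 0.60. The glycolysis genes had a median GC content of 53.5% and a median difference of 0.60, and the mitochondrial genes had 47.7% and -0.089. Within each set rho was 0.35 and 0.54 (n = 19 each). Pcx and Pfkl, at 57.7% and 57.1% GC, had differences of 1.01 and 1.40, and Suclg2, at 44.4%, had -0.92. The difference did not follow GC content in every gene: Gapdh, at 56.6%, had 0.044, while Pfkp, at 48.9%, had 1.56. With the GC trend of each library removed in the fit, 16 of 19 glycolysis genes and 6 of 19 mitochondrial genes had a negative log2 fold change, and the lowest adjusted p of a member was 0.283, that of Aldoa. Periocular mesenchyme markers also summed to 185 CPM in control replicate 2 against 72.6 and 76.8 CPM in the other controls. Neurogenic precursor markers summed to 2027 CPM in that library against 1473 to 1531 CPM in the other 5, and retinal ganglion cell markers to 5456 CPM against 4432 to 5048 CPM. The part of these cells in its values was not tested.

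**Figure D4:**
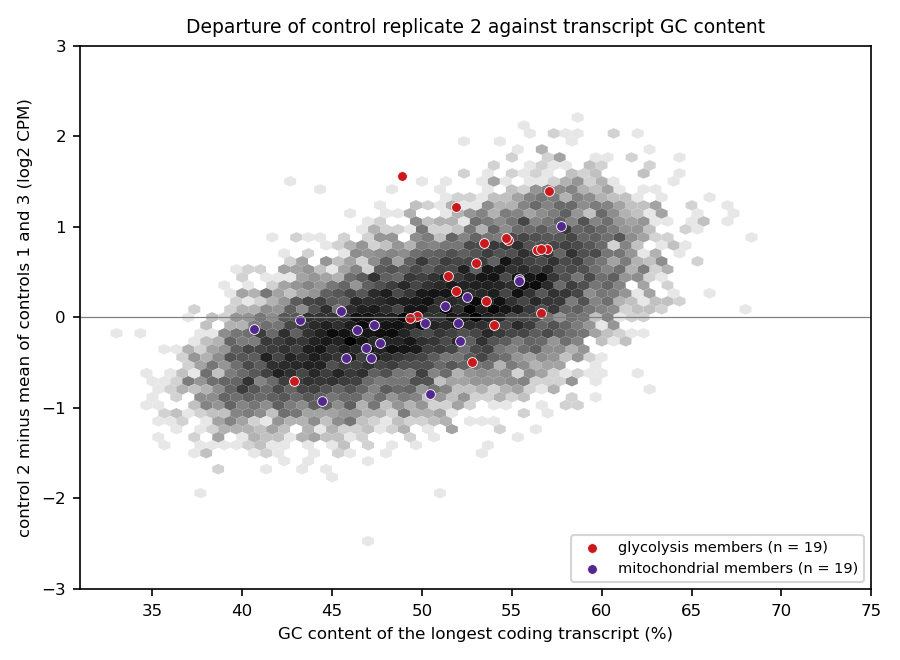
Difference of control replicate 2 from the mean of control replicates 1 and 3 (y axis, log2 CPM) against the GC content of the longest coding transcript (x axis, percent), with all 13822 genes as grey bins shaded by their number on a log scale, and the glycolysis (red) and mitochondrial (purple) members as points. The red points lie mostly above 0 on the right, and the purple points spread from -0.92 on the left to 1.01 on the right.

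Genes beside the listed enzymes were examined in 5 further lists written with earlier results of these data known. Over all genes tested edgeR called 0.705% lower and 0.192% higher. Of 30 tested genes for other steps of glycolysis, lactate and glucose entry 2 were called, both lower. Of 33 other pyruvate and citric acid cycle genes 1 was called lower, and of 8 pentose phosphate genes 1 was called lower. None of these genes was called higher by edgeR, with 1 at an unadjusted p under 0.05 (Acly, which DESeq2 called and limma-voom did not). The 4 called genes belong to side branches of the 2 pathways. Mdh1, the cytosolic malate dehydrogenase of the malate-aspartate shuttle, fell 2.01-fold, from 274, 216 and 199 CPM in the controls to 128, 108 and 107 CPM in the CKO. Its log2 fold change was -1.01 ± 0.17 (SE, edgeR adjusted p = 0.0411), whereas its mitochondrial counterpart Mdh2 stood at -0.019 ± 0.17. The difference between these genes was not tested. Gpd1l, a relative of the cytosolic glycerol 3-phosphate dehydrogenase, fell 1.88-fold, from 47.8, 54.9 and 50.9 CPM to 29.6, 26.9 and 25.2 CPM (log2 fold change -0.91 ± 0.14 SE, edgeR adjusted p = 0.0294).

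Rpia, ribose 5-phosphate isomerase of the pentose phosphate pathway, fell 4.72-fold, from 34.3, 52.6 and 29.1 CPM in the controls to 9.49, 8.25 and 6.79 CPM in the CKO. Its log2 fold change was -2.24 ± 0.26 (SE, edgeR adjusted p = 0.0106). Galm, which interconverts the ring forms of galactose and glucose, fell 4.83-fold from 9.97, 7.94 and 6.28 CPM to 1.83, 1.68 and 1.47 CPM (log2 fold change -2.27 ± 0.24 SE, edgeR adjusted p = 0.00791). In all 4 genes the CKO libraries lay well below every control. Acly, ATP citrate lyase, which turns exported citrate into cytosolic acetyl-CoA, was picked out after its values were seen. It gave 618, 600 and 718 CPM in control libraries and 988, 1002 and 1086 CPM in CKO libraries, with no overlap, at a log2 fold change of 0.67 ± 0.13 (SE). edgeR did not call it (adjusted p = 0.0878), whereas DESeq2 did (adjusted p = 6.1e-04), as did edgeR without control replicate 2 (adjusted p = 0.0419). Over the alternatives other than DESeq2 its adjusted p lay between 0.0419 and 0.562.

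Each of these calls was lost when some of the libraries were left out. Mdh1 kept an adjusted p under 0.05 only without control replicate 2 when each library was left out in turn (0.0303 to 0.285), and it was lost with library sizes only (0.0699). Gpd1l was lost without control replicate 3 and without each CKO library (0.0156 to 0.266). Rpia was lost without each CKO library (0.0065 to 0.0722), and Galm without CKO replicates 1 and 3 (0.0129 to 0.0671). The log2 fold change over these fits lay between -1.10 and -0.86 for Mdh1, between -0.98 and -0.85 for Gpd1l, between -2.37 and -1.94 for Rpia and between -2.39 and -2.09 for Galm.

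**Figure D5:**
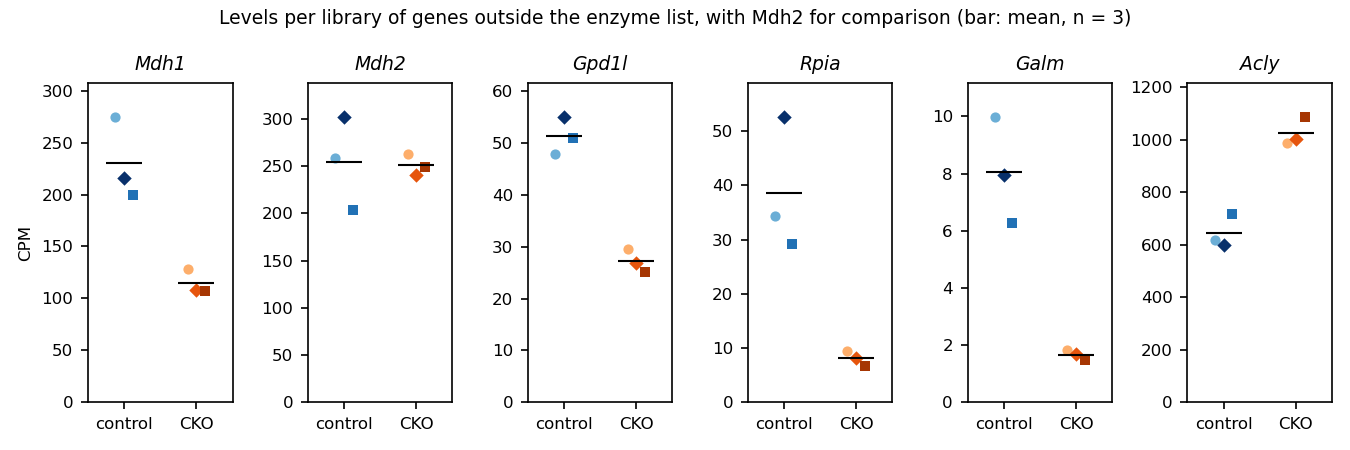
CPM (y axis, from 0) of Mdh1, Mdh2, Gpd1l, Rpia, Galm and Acly in each library, with circle, diamond and square for replicates 1, 2 and 3, controls in blue, CKO in orange and a bar at the mean (n = 3). The CKO libraries lie below all controls for Mdh1, Gpd1l, Rpia and Galm, above them for Acly, and among them for Mdh2.

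Promoters were searched for the sequence that Ronin complexes with HCF-1 are known for, ACTACANNTCCC, on both strands, in the 300 bases from 250 before to 50 after each gene's start (RefSeq, GRCm38.p6). It was found in 0 of the 37 members with a promoter in the table, in 1.81% of all 32851 promoters and in 4.42% of the 10704 tested genes that have one. Among the genes called lower 63 of 83 held it (75.9%), and among those called higher 7 of 19 (36.8%). Of the 59 other tested pathway genes with a promoter 4 held it, namely Gpd1l, Mdh1, Acly and Rpia, the last at 2 places. Galm has no entry in the promoter table. The spelling was chosen with the counts known, and a match is a description, not a site or a cause. These stretches are shown because they are the matches of that spelling among the tested pathway genes, with the match in capitals and 9 bases on each side, 5′ to 3′ on the gene's strand.
Gpd1l, chr9:114934050-114934079, minus strand, first base at -83: gggaggtggACTACACATCCCaacattcct
Mdh1, chr11:21571924-21571953, minus strand, reverse complement of the motif, first base at -10: ggggtttggGGGAATTGTAGTttagcactg
Acly, chr11:100528041-100528070, minus strand, first base at -61: acgtccgggACTACAAGTCCCatcagcccc
Rpia, chr6:70792298-70792327, minus strand, reverse complement, first base at -143: tcgtattgtGGGACTTGTAGTcccgaatgc
Rpia, chr6:70792246-70792275, minus strand, first base at -91: cgccgtaggACTACATTTCCCagcaacacg

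A shorter form, TACANNTCC, lies inside the longer one. It was found in 4.43% of all promoters and in 6.77% of the 10704 tested genes that have one. Of the 37 members 1 held it, Suclg1. That stretch is shown as the only member match. Suclg1 itself had overlapping groups, as given above.
Suclg1, chr6:73248371-73248397, plus strand, first base at -125: gaaaaaaaaTACATTTCCcacaacacc

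Regulators of glucose metabolism were tested as a list of 21 genes, of which edgeR called 0, with 0 at an unadjusted p under 0.05, and DESeq2 and limma-voom also called 0. The pair of lowest p were Epas1 (HIF-2α), at 9.88 ± 2.22 CPM in control and 7.25 ± 1.20 CPM in CKO libraries (SD, n = 3 per group, edgeR adjusted p = 0.875), and Egln2, an oxygen-sensing prolyl hydroxylase. Egln2 gave 85.9, 172 and 83.0 CPM in control libraries and between 79.7 and 86.4 CPM in CKO libraries, so that only control replicate 2 stood out. Targets of hypoxia-inducible factor outside glycolysis gave 0 calls among 15 tested genes with edgeR, DESeq2 or limma-voom, and 1 at an unadjusted p under 0.05. That gene was Car12, a carbonic anhydrase at 0.464 ± 0.100 CPM in control and 0.859 ± 0.164 CPM in CKO libraries (SD, n = 3 per group, edgeR adjusted p = 0.633). P4ha1, a collagen prolyl hydroxylase, followed at 113 ± 7.43 and 99.2 ± 8.06 CPM (edgeR adjusted p = 0.929). With 0.897% of all genes tested called by edgeR, 0 calls in either of these short lists say little about their genes.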

How the data were processed

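The authors deposited 1 table of raw counts, whole numbers of reads for each gene symbol, of 3 control and 3 CKO libraries. BWA 0.7.6a-r433, HTSeq 0.5.4p3, DESeq 2.13 and build mm9 are named per the submitters' processing notes; no annotation or strand setting is stated there, so antisense and overlapping genes cannot be told apart. Trailing lines that are no table rows (4) and 1 repeated identical row were dropped. Counts were tested in R 4.3.3 with edgeR 4.0.16 (TMM, filterByExpr with a minimum count of 10, glmQLFit and glmQLFTest, genotype only), with Benjamini-Hochberg adjustment over 14609 genes and a threshold of 0.05, after the script had been tested on simulated data. Log2 fold changes are CKO minus control. A gene filter on counts removed 8832 genes.

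Levels are CPM; levels per kilobase use the union of exons of the GENCODE annotation of GRCm38, a later build than the counts. Total counts per library, 23721052 to 28504391, set the counting precision. The members and lists were chosen with earlier results of these data known. All members are named; full statistics are given for the 4 of lowest p in each group, for called genes of the other lists, or for the 2 of lowest p where none was called. Deviations of same-numbered libraries correlated at 0.34, 0.11 and -0.0014 for replicates 1 to 3, not all above 0.1, so replicate numbers were not used as pairs. No 2 libraries agreed within sampling noise (lowest chi-square per degree of freedom 5.94). Alternatives were DESeq2 size factors, library sizes only, the DESeq2 1.42.0 Wald test, limma-voom (limma 3.58.1), 2 other filters, a threshold of 0.01, a replicate block, leaving out each library, and a GC trend removed per library (loess, span 0.3, transcript GC content), the last added after the counts were seen.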

Additional observations from a re-analysis of the deposited data

How the results depend on the processing

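No member was called in any alternative, and the lowest adjusted p of any member in any of them was 0.066 (Pcx, without control replicate 2). The sign of the differences was less stable: 22 of the 38 tested members changed sign in at least 1 alternative and 16 in none, and leaving out control replicate 2 turned 15 members. With library sizes only the log2 fold change became positive for Gpi1 (0.014), Gapdh (0.073), Idh2 (0.064), Ogdh (0.032), Sucla2 (0.038), Fh1 (0.043) and Mdh2 (0.061). With DESeq2 size factors it became positive for Gapdh (0.016) and Idh2 (0.00074), with the DESeq2 Wald test for Gapdh (0.020), Idh2 (0.0056) and Mdh2 (0.0036), with limma-voom for Pfkp (0.022) and Fh1 (0.0020), and with no filter beyond a total above 0 for Gapdh (0.0015). The replicate block gave positive values for Pfkp (0.0036) and Fh1 (0.0024), 40 genes higher and 113 lower, and 3 other pathway genes called, having lost Gpd1l (adjusted p 0.0547); only replicate 1 of the controls deviated most like the CKO library of its own number, and the numbers mark no known pairing. With the GC trend removed the sign turned for Gapdh (0.036), Idh2 (0.037) and Mdh2 (0.033).

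Leaving out each library in turn moved the log2 fold change between -0.052 and 0.33 for Cs, -0.12 and 0.040 for Dld, -0.35 and 0.22 for Eno2, -0.11 and 0.20 for Fh1, -0.058 and 0.032 for Gapdh, -0.13 and 0.0095 for Gpi1, -0.45 and 0.033 for Hk1, -0.53 and 0.28 for Hk2, -0.096 and 0.15 for Idh2, -0.081 and 0.17 for Idh3a, -0.40 and 0.0024 for Ldhb, -0.12 and 0.13 for Mdh2, -0.11 and 0.043 for Ogdh, -0.074 and 0.52 for Pcx, -0.10 and 0.13 for Pdhx, -0.90 and 0.0045 for Pfkl, -0.33 and 0.21 for Pfkm, -0.76 and 0.22 for Pfkp, -0.22 and 0.065 for Pgam1, -0.30 and 0.19 for Slc16a1, -0.042 and 0.17 for Slc2a3, and -0.051 and 0.019 for Sucla2. Why these signs turn was not tested.

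Over all genes 28 were higher and 103 lower. Leaving out each library gave 6 to 72 higher (6 without control replicate 3 and without CKO replicate 3, 8 without CKO replicate 1, 72 without control replicate 2) and 10 to 147 lower (27 without control replicate 3, 33, 29 and 10 without CKO replicates 1, 2 and 3). The 4 calls among other pathway genes became 0 to 5 (2 without control replicate 3, and 0, 1 and 0 without CKO replicates 1, 2 and 3). The DESeq2 Wald test gave 117 higher and 196 lower, the GC trend removed gave 51 higher, and an adjusted p under 0.01 gave 8 higher, 31 lower and 1 other pathway gene. Eno1 had too few reads for the filter, for a reason that was not tested, and the SE of the tested members lay between 0.12 for Idh3g and 0.55 for Pfkp.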
